A study of Mus musculus with 6 samples.

Results

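ERα, the estrogen receptor encoded by Esr1, was mapped on chromatin of limbic brain tissue from gonadectomized adult C57/BL6 males, with or without injected estradiol, and 1024 of 39374 merged peak regions (2.6%) had a peak without the injection and none with it. These are called vehicle-only regions here. The rule joined overlapping or touching peaks of all 6 peak lists into regions, and kept those with a peak in at least 2 of 3 vehicle lists and in 0 of 3 estradiol lists. The members were thus chosen by presence or absence of peaks in these 6 lists, so their absence from the estradiol lists is the selection and not a result. The same rule with the groups exchanged gave 1459 estradiol-only regions (3.71%), which serve below for comparison, and 2863 regions had a peak in all 6 lists.

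Gonadectomy, which removes the testes and the hormone they release, was done when all males were aged 10 to 12 weeks. After 3 weeks the estradiol group (3 libraries) was given 5 µg of estradiol benzoate, an ester of estradiol, under the skin, and the vehicle group (3 libraries) was given corn oil. Nuclei were taken 4 hours later. In CUT&RUN an antibody tethers a nuclease to the protein of interest, and the short DNA fragments that the nuclease releases are sequenced. No label ties a library to an animal, so the spread between libraries may be technical, and limbic tissue pools many cell types, so fewer cells with bound receptor and less receptor bound per cell cannot be told apart. Peak lists measure no expression, so the tissue label could not be checked against marker genes.

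ERα belongs to the nuclear receptors, transcription factors that a hormone switches on by binding to them. With estradiol bound, the receptor pairs with itself and binds palindromic estrogen response elements in DNA, or joins genes through other factors such as AP-1. In limbic regions such as the medial amygdala, the bed nucleus of the stria terminalis and the hypothalamus, it is known for its part in social and reproductive behaviour and in metabolism. Receptor without hormone can also be found in nuclei, and the vehicle libraries record whatever the antibody recovered in that state.

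The estradiol lists held 11082, 14123 and 17558 peaks in replicates 1, 2 and 3, and the vehicle lists held 5421, 13717 and 20541. Each list started at a −log10 q of 2.00 to 2.01, where q is the false discovery rate the peak caller gives. The fragments stacked at a peak's summit were estimated from the deposited fold enrichment and p-value. In every library the least summit had 4 fragments and the median summit 6, so the absence of a peak does not show the absence of binding. Replicate 3 of both groups carries shorter labels and another style of peak name than replicates 1 and 2, and is taken here as its own batch, holding 1 library of each group.

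Promoter windows under tall vehicle-only regions are shown first, because they place members on named promoters. Of the 1024 regions, 170 (16.6%, exact 95% interval 14.4 to 19.0) overlapped a promoter window of 300 bp, which runs from 250 bp before to 50 bp after a RefSeq gene start (assembly GRCm38.p6, whose coordinates are those of mm10). The windows used here cover 17492 of 21887 protein-coding genes, so this share is a lower limit. No window overlapped the tall regions at the ends of Disp2, Triqk and Gnl3l, described below. The first 5 lines below are the windows with the tallest peaks among the 170, ranked by the lower of the within-list percentiles of −log10 q, and the last, Dgki, belongs to a gene with 3 vehicle-only regions. These windows were chosen after their values were seen. Each reads 5′ to 3′ on the gene's strand, and capitals mark the bases that the vehicle-only region covers.
Cdkn2aipnl: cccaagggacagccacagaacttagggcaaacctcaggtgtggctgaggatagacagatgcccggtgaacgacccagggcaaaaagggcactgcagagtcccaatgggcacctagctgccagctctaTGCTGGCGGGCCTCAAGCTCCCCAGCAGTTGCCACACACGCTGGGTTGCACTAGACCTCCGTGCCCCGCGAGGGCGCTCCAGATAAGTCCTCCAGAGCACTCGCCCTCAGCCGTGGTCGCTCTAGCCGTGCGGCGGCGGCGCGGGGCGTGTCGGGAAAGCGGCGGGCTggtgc
Dgkq: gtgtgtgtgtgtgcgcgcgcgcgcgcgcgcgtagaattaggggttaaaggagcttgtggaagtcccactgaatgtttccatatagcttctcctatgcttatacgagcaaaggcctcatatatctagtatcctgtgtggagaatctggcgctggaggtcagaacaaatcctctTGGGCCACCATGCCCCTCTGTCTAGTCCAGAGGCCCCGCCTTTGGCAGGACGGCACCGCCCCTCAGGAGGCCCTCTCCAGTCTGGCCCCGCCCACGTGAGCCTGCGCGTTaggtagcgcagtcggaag
Ppt2: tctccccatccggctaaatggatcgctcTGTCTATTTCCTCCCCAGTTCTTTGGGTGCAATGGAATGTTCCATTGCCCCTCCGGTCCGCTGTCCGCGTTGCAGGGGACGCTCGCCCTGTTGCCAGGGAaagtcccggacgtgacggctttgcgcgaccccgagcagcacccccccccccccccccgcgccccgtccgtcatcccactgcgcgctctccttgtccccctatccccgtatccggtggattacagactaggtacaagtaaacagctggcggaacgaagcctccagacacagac
Exd1: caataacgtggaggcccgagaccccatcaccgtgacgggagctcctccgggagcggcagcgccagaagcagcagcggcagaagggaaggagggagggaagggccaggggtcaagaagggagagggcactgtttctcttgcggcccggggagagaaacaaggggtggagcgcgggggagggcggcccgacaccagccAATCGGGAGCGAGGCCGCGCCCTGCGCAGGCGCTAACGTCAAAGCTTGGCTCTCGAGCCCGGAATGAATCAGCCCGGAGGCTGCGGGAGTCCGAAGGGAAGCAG
Arhgap17: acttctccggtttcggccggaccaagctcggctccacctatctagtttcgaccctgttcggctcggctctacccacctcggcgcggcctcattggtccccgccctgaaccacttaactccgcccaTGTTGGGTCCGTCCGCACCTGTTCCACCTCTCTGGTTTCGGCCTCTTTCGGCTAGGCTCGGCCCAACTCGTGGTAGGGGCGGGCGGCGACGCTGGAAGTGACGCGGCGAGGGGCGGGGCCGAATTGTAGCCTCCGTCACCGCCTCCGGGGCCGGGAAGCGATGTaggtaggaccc
Dgki: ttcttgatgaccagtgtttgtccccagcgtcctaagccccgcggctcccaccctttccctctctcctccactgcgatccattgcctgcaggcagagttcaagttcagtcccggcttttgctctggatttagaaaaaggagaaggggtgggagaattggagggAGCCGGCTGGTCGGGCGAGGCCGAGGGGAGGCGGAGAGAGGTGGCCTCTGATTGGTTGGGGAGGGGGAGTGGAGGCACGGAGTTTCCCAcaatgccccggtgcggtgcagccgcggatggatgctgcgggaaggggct

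In mm10 these windows lie at chr11:51967381-51967680 (plus strand) for Cdkn2aipnl, chr5:108660781-108661080 (minus) for Dgkq, chr17:34627328-34627627 (minus) for Ppt2, chr2:119547578-119547877 (minus) for Exd1, chr7:123369866-123370165 (minus) for Arhgap17 and chr6:37299927-37300226 (minus) for Dgki. The region covered 168 of the 300 bases at Cdkn2aipnl, 110 at Dgkq, 100 at Ppt2, 104 at Exd1, 164 at Arhgap17 and 89 at Dgki. At Ppt2 the summit stood at -172 bp and the region ended before the start on which the window is set. By the gene spans used for position below, this region lay inside Ppt2 and not near a gene end. The start of that window thus lies within the gene span. Dgkq and Dgki encode diacylglycerol kinases, which turn the second messenger diacylglycerol into phosphatidic acid. Ppt2 encodes a lysosomal thioesterase, and Arhgap17 a GTPase-activating protein for small GTPases. The capitals are rich in G and C, with 70.8% at Cdkn2aipnl, 70.9% at Dgkq, 60% at Ppt2, 66.3% at Exd1, 68.9% at Arhgap17 and 69.7% at Dgki. The covered bases at Exd1 hold both TGAATCA, a match to the AP-1 motif described below, and a match to the NRF1-like motif. The summit of that region stood at 95 bp, downstream of the window, which ends 50 bp after the start, so neither match lies at the summit. At Arhgap17 the nearest estradiol peak ended 20 bp from the region, so peaks of both groups stood side by side on that promoter.

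Across the 170 regions the peak summit lay a median of 44 bp upstream of the gene start (a summit position of -44 bp relative to the start). The windows reach farther upstream than downstream, so the split of 144 summits upstream and 26 at or downstream of the start follows the choice of window and is not a result. Their positions ranged between -325 and 113 bp, and 11 lay outside the window that the region overlapped. The 170 regions touched windows of 191 genes, since some starts are shared by neighbouring genes. By the gene spans used for position below, 140 of them were within 1 kb of a gene end, 18 inside a gene and 12 outside. The overlap share was 16.6% for vehicle-only regions, 10.1% (148 of 1459, interval 8.64 to 11.8) for estradiol-only regions and 62.9% for the regions found in all 6 lists. These shares were not tested and were not recomputed with libraries left out. Most of the 170 regions were near a gene end, and the near-end surplus given below turned with the choice of libraries.

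**Figure D1:**
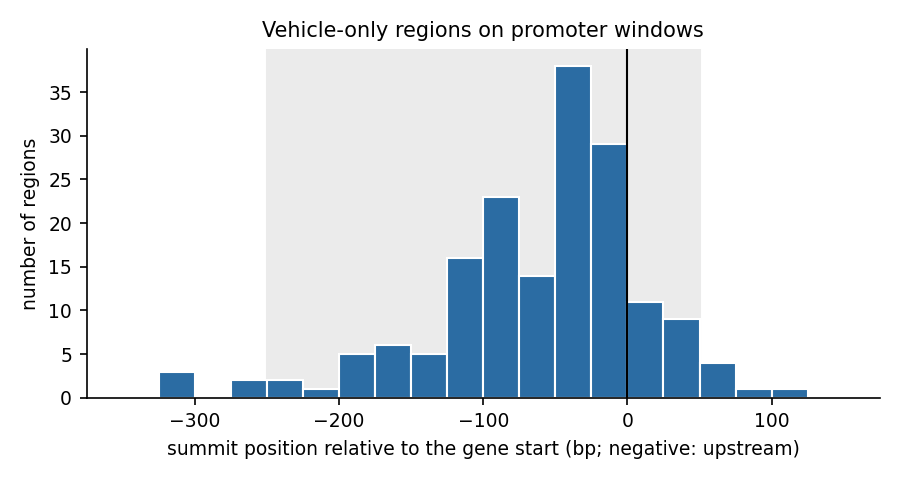
Distance of the peak summit to the gene start for the 170 vehicle-only regions that overlap a promoter window (x axis in bp, negative values upstream; y axis, number of regions per bin; grey, the window of 250 bp before to 50 bp after the start). The median is -44 bp; the window itself reaches farther upstream than downstream, which sets how many summits fall on each side.

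A search for 3 sequence motifs was made in the 204 promoter windows that a vehicle-only region overlapped. The motifs were a full estrogen response element (GGTCA and TGACC with 3 bases between them), an AP-1 site (TGANTCA) and an NRF1-like site (GCGC, any 2 bases, GCGC), where NRF1 is a factor that binds GC-rich promoters. Each motif reads the same on both strands, and overlap between motifs was allowed. No vehicle-only window held the full estrogen response element, 1 of 182 estradiol-only windows did, and 23 of all 32817 promoter windows (0.0701%) did. The AP-1 motif stood in 10 vehicle-only windows (4.90%), in 3.85% of estradiol-only windows, in 3.39% of windows under regions found in all 6 lists and in 7.81% of all windows. The NRF1-like motif stood in 42 vehicle-only windows (20.6%), 17.6% of estradiol-only windows, 17.0% of windows of the regions found in all 6 lists and 6.22% of all windows. The median GC content was 60.8%, 62.0%, 61.7% and 52.7% in those 4 sets of windows, in the same order. GC content was thus lowest over all windows, where the NRF1-like share was also lowest, but it did not follow that share among the 3 sets of windows under regions, and its part was not tested. With 1 window taken for each of the 170 regions, the covered bases themselves held an NRF1-like match in 20 regions, an AP-1 match in 2 and an estrogen response element in 0. A match is a string of letters and not a bound site, and regions away from promoter windows were not searched.

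The class rested mainly on a single pair of libraries. Vehicle replicates 2 and 3 together, without replicate 1, held 832 of the 1024 regions (81.2%), replicates 1 and 3 held 98 (9.57%), replicates 1 and 2 held 50 (4.88%), and 44 (4.30%) had a peak in 3 of 3. Vehicle replicate 1, the shortest list, thus held 192 regions (18.8%), whereas replicate 2 held 926 (90.4%) and replicate 3 held 974 (95.1%). Of the 1459 estradiol-only regions, 717 were in estradiol replicates 2 and 3, 257 in 1 and 3, 195 in 1 and 2, and 290 (19.9%) in 3 of 3.

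**Figure D2:**
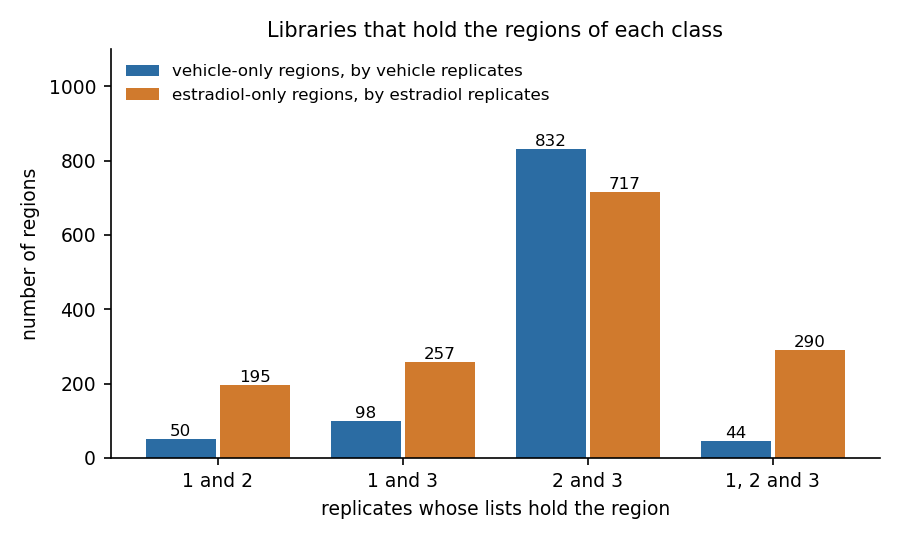
Number of regions (y axis) by the replicates whose lists hold them (x axis), for vehicle-only regions counted over vehicle replicates (left bars) and estradiol-only regions counted over estradiol replicates (right bars). Vehicle replicates 2 and 3 hold 832 of 1024 vehicle-only regions, and 44 are in 3 of 3 lists, against 290 estradiol-only regions in 3 of 3.

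The number of regions hung on the same libraries. Dropping vehicle replicate 3 and asking for a peak in both remaining vehicle lists left 90 regions, and dropping vehicle replicate 2 left 141. Dropping vehicle replicate 1 left 876. These numbers largely restate the counts by pair given above. Dropping an estradiol list relaxes the rule, and the number rose to 1327, 1508 and 1791 without estradiol replicates 1, 2 and 3. Cutting every list to its 5421 strongest peaks, the length of the shortest, left 382 vehicle-only and 602 estradiol-only regions.

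Vehicle-only peaks were small. Their summits held a median of 5 estimated fragments in vehicle replicate 1, 5 in replicate 2 and 6 in replicate 3, with highest values of 9, 12 and 22. The share standing on only 4 or 5 fragments was 67.2% in vehicle replicate 1, 65.3% in replicate 2 and 41.6% in replicate 3, and summits of 10 or more fragments numbered 0, 10 and 62. In vehicle replicates 1, 2 and 3 the median −log10 q was 2.99, 3.68 and 4.10, and the highest was 9.10, 11.4 and 18.4. Median fold enrichment over the caller's background was 4.98, 5.10 and 5.39. These heights are the authors' own values, and they placed the vehicle-only peaks below the middle of each list, at a median percentile of 32.2, 35.4 and 44.6. The rule asks that no estradiol list call a peak, which favours peaks near the threshold. Low heights are thus partly set by the selection, and how far was not tested.

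**Figure D3:**
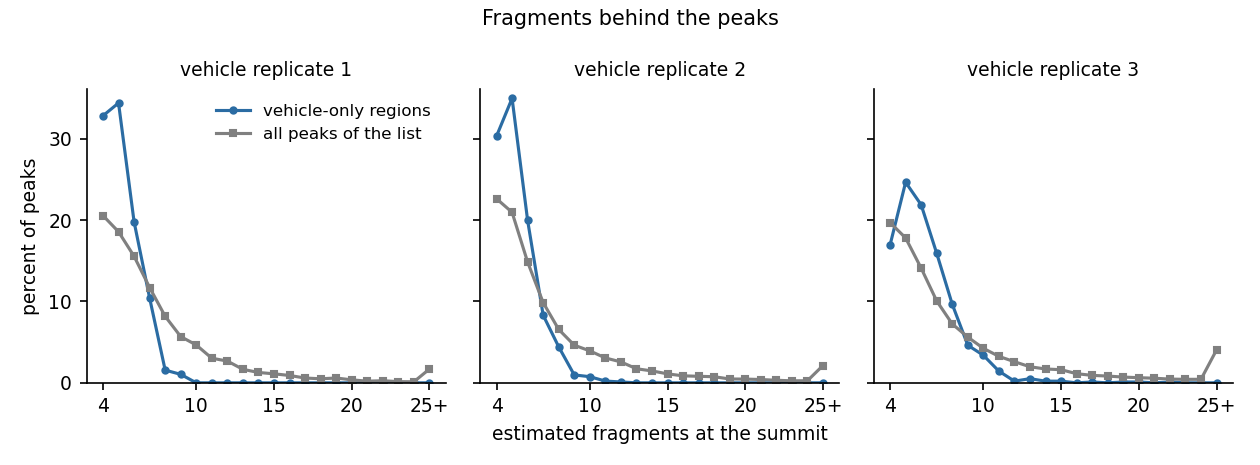
Estimated fragments at the summit (x axis, last point 25 or more) for vehicle-only regions and for all peaks of the same vehicle list (y axis, percent of peaks), one panel per vehicle replicate. Vehicle-only peaks crowd at 4 to 7 fragments and no vehicle-only summit passes 22.

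The estradiol-only regions also had modest medians but a longer upper tail. Their median summit held 5, 6 and 6 fragments in estradiol replicates 1, 2 and 3, and their highest −log10 q was 31.1, 34.7 and 62.8. A threshold added after the data were seen, of −log10 q of at least 5 in 2 lists of the group, kept 80 vehicle-only and 317 estradiol-only regions. At 7 it kept 10 and 117, and at 10 it kept 0 and 50. List lengths differ, so these counts describe the lists and were not tested.

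Regions just outside the rule were taller on one side and shorter on the other. With a peak in 1 estradiol list there were 1389 regions held by 2 vehicle lists and 179 held by 3, and their median percentile in vehicle replicates 1, 2 and 3 was 37.1, 44.3 and 55.5. Regions with a peak in a single vehicle list and in no estradiol list numbered 11626, with median percentiles of 21.3, 25.9 and 25.4. Regions found in all 6 lists stood at 71.6, 87.6 and 91.2 in the same vehicle replicates. Percentiles thus rose with the number of lists that hold a region, which the rule limits, so this order is not a result about the class. The median width was 74 bp (27 to 270 bp) for vehicle-only regions. It was 94 bp for estradiol-only regions and 217 bp for regions found in all 6 lists. Width runs over all merged peaks of a region, so regions held by more lists tend to be wider by the way they are built. Widths were not compared at equal numbers of lists.

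Some vehicle-only regions stood beside a peak of the other group. The nearest estradiol peak lay within 100 bp for 89 regions (8.69%, interval 7.04 to 10.6), within 500 bp for 154 (15.0%) and within 10 kb for 417 (40.7%), with a median distance of 15.7 kb. For estradiol-only regions the nearest vehicle peak lay within 100 bp for 7.47%, within 500 bp for 13.5% and within 10 kb for 34.2%, with a median of 20.1 kb. Regions found in all 6 lists were rarely close, since 13 vehicle-only regions (1.27%) and 24 estradiol-only regions (1.65%) had one within 1 kb. Vehicle-only regions were scattered, with another member within 10 kb for 32 of 1024 (3.13%). By chromosome their share of all regions ranged between 2.00% on chromosome 13 and 3.35% on chromosome X (23 of 687), leaving aside chromosome Y with 0 of 2.

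Position against genes was measured on the spans of 21887 RefSeq protein-coding genes. A region within 1 kb of either end of a span was called near a gene end, which takes in both starts and 3′ ends. Of the vehicle-only regions 230 (22.5%, interval 19.9 to 25.1) were near a gene end, against 212 estradiol-only regions (14.5%, interval 12.8 to 16.4). The difference was 7.93 percentage points (two-sided Fisher's exact test, p = 5.05e-07, adjusted over 3 positions 1.515e-06). Inside genes lay 359 vehicle-only regions (35.1%), against 588 estradiol-only regions (40.3%; Fisher's exact test, p = 0.00822, adjusted 0.0123). Outside genes lay 435 (42.5%) and 659 (45.2%), and this difference did not pass Fisher's exact test (p = 0.189, adjusted 0.189). The intervals and Fisher tests count regions, which are not replicates, and a single region cannot be tested with 3 libraries against 3, where the smallest exact p is 0.1.

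Neither the surplus near gene ends nor the lower share inside genes was stable to the choice of libraries. Without vehicle replicate 3 the near-end share was 18.9% of vehicle-only and 26.9% of estradiol-only regions, and with replicates 1 and 2 alone, which is the comparison within their batch, it was 25.0% and 31.0%, so the direction turned. Replicate 3 forms a batch of 1 library per group, so no value can be had within it. Asking that peaks cover 50% of the region gave 27.3% and 24.8%, and lists of equal length gave 41.4% and 35.4%. Without vehicle replicate 2 the shares were 24.1% and 18.7%. With a block by replicate number, which no label ties to an animal or day, they were 24.0% and 22.2%. All of these kept the direction but fell short of the threshold. The inside share turned without vehicle replicate 3, at 38.9% of vehicle-only and 35.4% of estradiol-only regions, and its call was lost in the same direction in 8 others of the 16 alternatives. By library pair, the near-end share of vehicle-only regions was 14.0% in replicates 1 and 2 (7 of 50, interval 5.82 to 26.7). In replicates 1 and 3 it was 24.5% (24 of 98, 16.4 to 34.2). In replicates 2 and 3 it was 22.5% (187 of 832, 19.7 to 25.5), and in 3 of 3 it was 27.3% (12 of 44, 15.0 to 42.8). These intervals overlap. For estradiol-only regions the near-end share was 13.8%, 16.7%, 14.2% and 13.8% in the same order.

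Both classes were near gene ends more often than windows beside them. Windows of the same width moved 5 kb to each side were near a gene end in 5.96% of cases for vehicle-only and 4.25% for estradiol-only regions. Among regions held by a single library, 1331 of 11557 in an estradiol list (11.5%) and 1631 of 11626 in a vehicle list (14.0%) were near a gene end. The regions found in all 6 lists were near an end in 72.0% of cases. Of those near-end regions 23.9% were near ends of 2 or more genes, against 17.4% (40 of 230) for vehicle-only and 21.7% for estradiol-only regions. Genes with a vehicle-only region near an end had a median length of 23.3 kb, and genes with one inside had a median length of 102 kb, against 18.3 and 156 kb for estradiol-only regions.

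**Figure D4:**
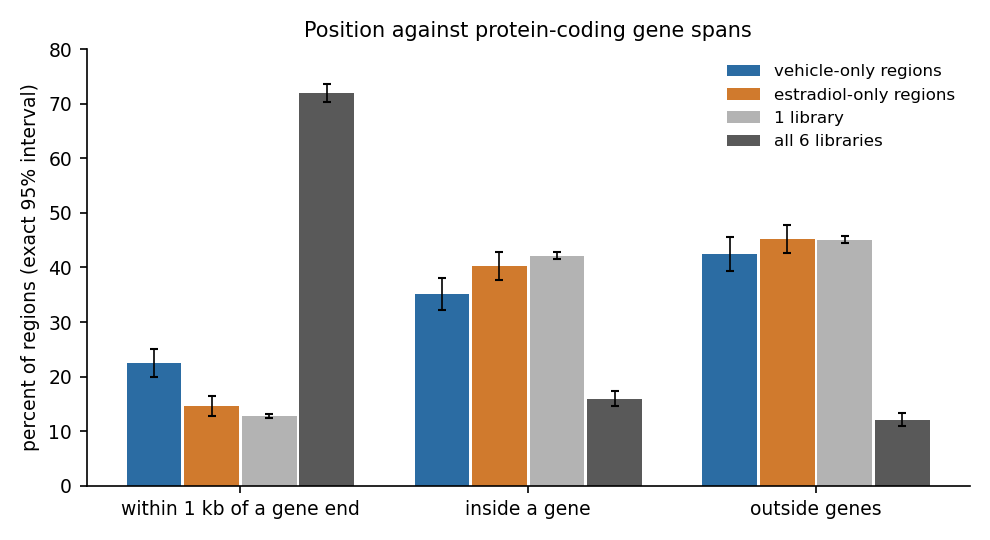
Percent of regions (y axis) within 1 kb of a gene end, inside a gene span or outside genes, for vehicle-only regions, estradiol-only regions, regions of 1 library and regions found in all 6 libraries; error bars are exact 95% intervals. Vehicle-only regions were near a gene end in 22.5% of cases, between the 14.5% of estradiol-only regions and the 72.0% of regions found in all 6 lists.

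Outside genes, vehicle-only regions lay a median of 21.55 kb (1.04 to 1215 kb) from the nearest gene, and 145 of 435 (33.3%) were within 10 kb. Estradiol-only regions outside genes lay a median of 60.9 kb away, with 15.3% within 10 kb. These distances were not tested. Of the 435, 73 (16.8%, interval 13.4 to 20.6) fell in the span of a long noncoding RNA gene, against 19.9% (16.9 to 23.1) of the 659 estradiol-only regions, and the intervals overlap. A miRNA hairpin lay within 1 kb of 2 vehicle-only and 2 estradiol-only regions.

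The tallest vehicle-only regions near gene ends were at Cdkn2aipnl, Disp2, Dgkq, Triqk, Exd1 and Gnl3l, each present in 2 of 3 vehicle lists. The height of a region was ranked by the lowest within-list percentile of its −log10 q. At Cdkn2aipnl (chr11:51967508-51967675) the −log10 q was 8.64 in vehicle replicate 2 and 8.76 in replicate 3, on 8 and 9 fragments, and replicate 1 had no peak. Disp2 encodes a homolog of Dispatched, the membrane protein that releases Hedgehog ligands in flies. Its region (chr2:118779591-118779705) had the highest value in vehicle replicate 2, with 11.4, and 8.24 in replicate 3. At Dgkq the region (chr5:108660799-108660908) also lay within 1 kb of an end of Idua, the lysosomal iduronidase gene. It reached 7.26 in vehicle replicate 2 and 7.13 in replicate 3. Exd1, a gene of the piRNA pathway, shares its start region (chr2:119547517-119547681) with Chp1, which encodes a calcineurin-like calcium-binding protein. There the −log10 q was 5.84 in vehicle replicate 1 and 6.77 in replicate 3, with no peak in replicate 2. At Gnl3l (chrX:151016989-151017061), which encodes a nucleolar GTPase, it was 6.10 in vehicle replicate 2 and 8.67 in replicate 3. Triqk (chr4:12906774-12906829) was the one of the 6 held by vehicle replicates 1 and 2, with 6.09 and 6.32. No estradiol peak lay closer than 19.5 kb to any of these 6 regions.

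Inside genes the tallest regions included those at C2cd2l, Jade2, Tnks, Adamts17 and Asic2, all held by vehicle replicates 2 and 3. Tnks encodes tankyrase, a poly-ADP-ribose polymerase of telomeres and Wnt signalling. Its region (chr8:34893113-34893224) had a −log10 q of 7.50 in vehicle replicate 2 and 14.3 in replicate 3, on 9 and 17 fragments. C2cd2l, a lipid transfer protein at contacts of the endoplasmic reticulum with the plasma membrane, had 8.404 and 10.62 in vehicle replicates 2 and 3 (chr9:44313912-44313977). Jade2 belongs to a histone acetyltransferase complex, and its region (chr11:51857169-51857234), 1.78 kb inside the gene's end, had 7.87 and 11.7 in vehicle replicates 2 and 3. The metalloprotease gene Adamts17 (chr7:67099943-67100046) had 6.44 and 11.6, and the acid-sensing channel gene Asic2 (chr11:81897671-81897789) had 7.97 and 6.97 in the same libraries. In these 5, with Asic2 as the exception, vehicle replicate 3 had the higher value.

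Outside genes the tallest were nearest to Ppp1r3a, Serpini1, Trim58, Cpxm2, Hnrnpu and Ctnna2. Nearest is a statement of distance, and no region was tied to a gene's regulation. Serpini1 encodes neuroserpin, a protease inhibitor of neurons, and its region (chr3:75687588-75687692) stood 45.1 kb away with a −log10 q of 6.47 in vehicle replicate 2 and 9.42 in replicate 3. The Ppp1r3a region (chr6:14504374-14504449) stood 209 kb from that gene for a glycogen-targeting subunit of protein phosphatase 1, with 7.71 and 8.56. The regions at Trim58 (chr11:58636706-58636813) and Cpxm2 (chr7:132158608-132158856) stood 3.65 and 3.84 kb away. Vehicle replicates 2 and 3 had 7.26 and 7.06 at Trim58, and 7.25 and 7.02 at Cpxm2. Hnrnpu encodes a nuclear RNA-binding scaffold protein, and its region (chr1:178369002-178369121) had 6.32 and 6.68. The Ctnna2 region (chr6:75799669-75799761) lay 1082 kb from that neuronal catenin gene, beyond the 500 kb used for assignment, with 6.10 and 6.58. An estradiol peak stood 57 bp from it, so the estradiol libraries were not without signal at that place.

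Of the 44 regions in 3 of 3 vehicle lists, 12 (27.3%) were near a gene end, 13 inside a gene and 19 outside. The 8 ranked highest were at Kcnh8, Mast4, Zmynd8, Kcnb2, Col6a1, Gm4791, Syt16 and Rnh1. Kcnh8 and Kcnb2 encode voltage-gated potassium channels. The Kcnh8 region (chr17:52560066-52560174), 42.5 kb outside the gene, had 9.10, 5.30 and 5.58 as its −log10 q in vehicle replicates 1, 2 and 3, and 9.10 was the highest vehicle-only value in replicate 1. The Kcnb2 region (chr1:15683745-15683828), inside the gene, had 4.73, 4.35 and 9.01. Mast4 encodes a microtubule-associated kinase, and its region (chr13:102906102-102906248) had 4.09, 7.50 and 4.82. Zmynd8 is a reader of modified histones, and its region (chr2:165855804-165855932) had 3.54, 4.68 and 5.37 in the same order. The lowest of the 3 values lay between 3.26 and 5.30 in all 8, and no library was highest throughout. The nearest estradiol peak stood 216 bp away at Syt16, a synaptotagmin gene, and 593 bp away at Gm4791. It stood 3.72 kb away at Rnh1, the ribonuclease inhibitor gene, and 6.43 kb or farther at the other 5.

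**Figure D5:**
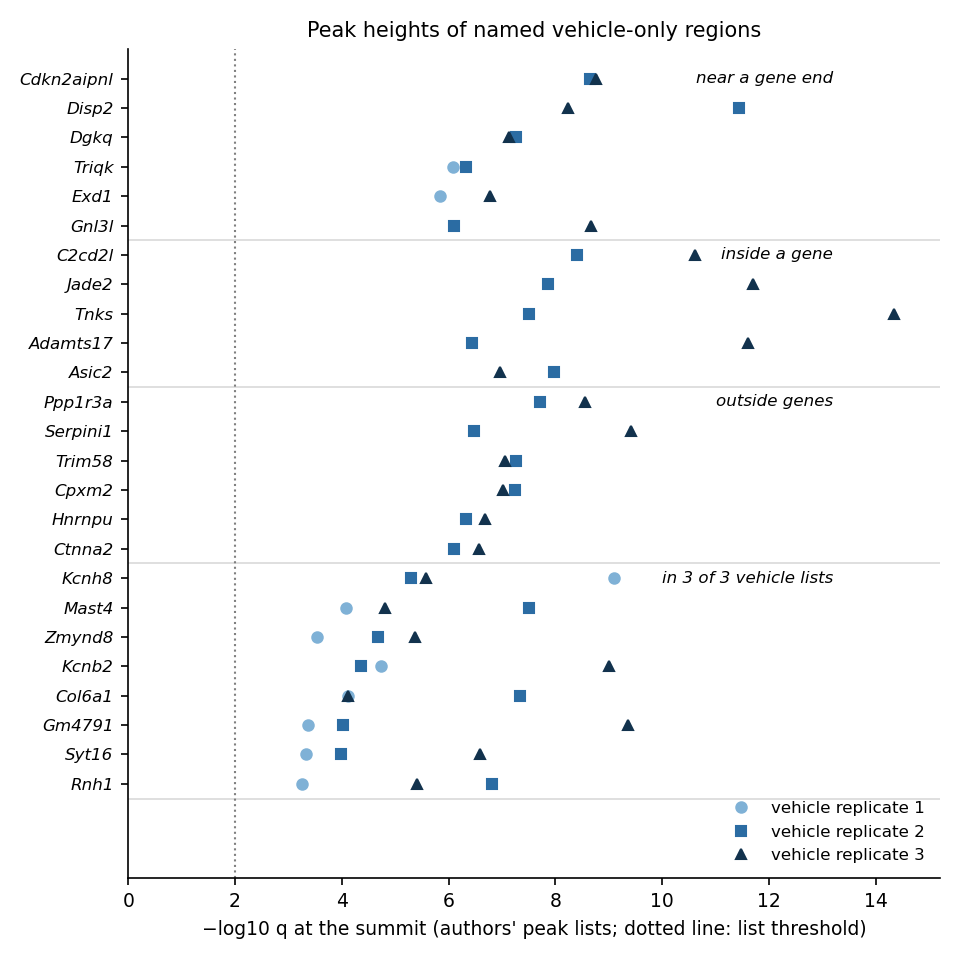
Peak height as −log10 q at the summit (x axis, from the authors' lists; dotted line, the list threshold of 2) of tall vehicle-only regions by position and of the tallest in 3 of 3 vehicle lists, one symbol per vehicle replicate that holds the region. Near gene ends, inside and outside genes each region has 2 symbols, mostly replicates 2 and 3, and Tnks reaches 14.3 in replicate 3; none has a peak in an estradiol list.

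Assigned to the nearest protein-coding gene within 500 kb, vehicle-only regions reached 945 of 21887 genes (4.32%) and estradiol-only regions 1213 (5.54%). A single vehicle-only region was assigned to 886 genes, 2 to 54 genes and 3 to 5 genes, and no gene had 4 or more. The genes with 3, named after their values were seen, were Abcc12, Dgki, Hs6st1, Cpe and Thsd4. Cpe encodes carboxypeptidase E, which trims neuropeptide and prohormone precursors. Its regions stood on one gene end (chr8:64693014-64693118) and at 2 places inside, with a −log10 q of 4.68, 6.02 and 2.99 in vehicle replicate 2 and 4.03, 3.23 and 2.68 in replicate 3. Dgki had one on the promoter window shown above, within the span and 891 bp from its end. That region had 4.98 in vehicle replicate 2 and 5.62 in replicate 3. Dgki also had 2 farther inside, one of which had an estradiol peak 51 bp away. Hs6st1, a heparan sulfate sulfotransferase gene, had 3 outside its span, at distances of 3200 bp, 117 kb and 225 kb.

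Among 394 genes in 19 lists of pathways and markers, 34 (8.63%) had a vehicle-only region assigned and 72 (18.3%) an estradiol-only region, beside the 4.32% and 5.54% of all protein-coding genes. The list genes are long, with a median span of 46.7 kb against 17.2 kb over all genes, and the part of gene length in the counts below was not tested. The lists were chosen with earlier results of these data known, so their counts are descriptions. With assignment up to 100 kb, 30 list genes had a vehicle-only region and 65 an estradiol-only one. The vehicle-only regions of Nr5a2, Gria3, Cntnap4 and Sgk1, counted below, lay more than 100 kb from those genes. For 23 of the 34 list genes a region lay inside or within 1 kb of an end, beside 564 of the 945 genes reached in all.

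Of 38 nuclear receptor genes, Nr1d2, Nr5a2, Ppara, Rora and Thrb had a vehicle-only region assigned, and 7 had an estradiol-only one. The Nr5a2 region lay more than 100 kb from the gene. Rora and Nr1d2 (REV-ERB beta) act on the same response elements in the circadian clock, Ppara senses fatty acids, and Thrb is a thyroid hormone receptor. The taller of 2 regions in Rora (chr9:68954278-68954371, inside the gene) had a −log10 q of 6.38 in vehicle replicate 2 and 8.85 in replicate 3, and the other had 3.97 and 2.35. The Nr1d2 region (chr14:18238500-18238608), 498 bp from a gene end, had 8.62 in vehicle replicate 2 and 4.17 in replicate 3, and an estradiol peak stood 474 bp from it. The Ppara region, 25.3 kb from the gene, had 4.59 and 5.02 in those libraries. The Thrb region, inside the gene, had 2.02 in vehicle replicate 1 and 3.79 in replicate 3, near the threshold of the lists. Vehicle-only regions reached 2 of 20 coregulator genes and estradiol-only regions 3. Carm1, an arginine methyltransferase that acts as a coactivator, had one, with an estradiol peak 282 bp away.

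Of 17 circadian clock genes 4 had a vehicle-only region (Arntl, Cry1, Nr1d2 and Rora) and 1 an estradiol-only region. These are 23.5% and 5.88% of the list, against 4.32% and 5.54% of all protein-coding genes, and the difference was not tested. The median span of the list is 35.05 kb, against 17.17 kb over all genes. For 2 of the 4 genes a region lay inside or within 1 kb of an end. Nr1d2 and Rora were also counted among the nuclear receptors. Arntl encodes BMAL1, the activator of the clock, and Cry1 one of its repressors. The Arntl region lay 56.2 kb outside the gene, with a −log10 q of 2.54 in vehicle replicate 2 and 2.56 in replicate 3, and had an estradiol peak 68 bp away. The Cry1 region lay 29.9 kb outside, with 2.98 and 3.71 in the same libraries. The regions assigned to Arntl and Cry1, both outside those genes, thus had peaks close to the threshold. Peaks of the Nr1d2 region and of the taller Rora region stood higher.

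Ion channels and neurotransmitter receptors were reached in both classes. Vehicle-only regions were assigned to 4 of 30 potassium channel genes (Kcnb2, Kcnh7, Kcnh8 and Kcnip1), 1 of 24 sodium and calcium channel genes (Scn1a), 4 of 24 glutamate receptor genes (Gria3, Grik4, Grin2a and Grm3) and 1 of 15 GABA receptor genes (Gabrg3). Estradiol-only regions were assigned to 9, 7, 12 and 3 genes of those lists, in the same order. The vehicle-only shares were 13.3%, 4.17%, 16.7% and 6.67%, against 4.32% of all protein-coding genes. The estradiol-only shares were 30%, 29.2%, 50% and 20%, against 5.54%. These lists hold long genes, with median spans of 266.4, 164.7, 348.5 and 137.5 kb against 17.17 kb over all genes. Grin2a encodes a subunit of the NMDA receptor, and its region had a −log10 q of 3.68 in vehicle replicate 2 and 5.24 in replicate 3. Grm3 encodes a metabotropic glutamate receptor, and its region, 765 bp from a gene end, had 4.51 and 3.62. Gabrg3, a subunit of the GABA-A receptor, had 5.68 and 4.10.

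Synaptic adhesion genes had the highest count, with 9 of 30 (Cntnap2, Cntnap4, Ctnna2, Dscam, Lsamp, Ntm, Ptprs and Ptprt among them), and estradiol-only regions also reached 9. Each class thus reached 30% of this list, against 4.32% (vehicle-only) and 5.54% (estradiol-only) of all protein-coding genes. The median span of these adhesion genes is 938 kb, the longest of the lists. Heights ranged widely. At Ptprs, a receptor tyrosine phosphatase of synapses, the −log10 q was 6.63 in vehicle replicate 2 and 4.63 in replicate 3. At Ntm, a cell adhesion molecule of neurons, it was 2.06 and 2.09, just above the threshold.

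Of 24 genes induced by estrogen in other tissues, vehicle-only regions reached 2, Ret and Sgk1, and estradiol-only regions reached 6. These are 8.33% and 25% of the list, against 4.32% and 5.54% of all protein-coding genes. The Ret region, inside this receptor tyrosine kinase gene, had a −log10 q of 4.73 in vehicle replicate 1 and 2.84 in replicate 2. The Sgk1 region lay 119 kb from that kinase gene. The GABAergic marker list had 1 of 10, Slc32a1, the vesicular GABA transporter, where the −log10 q was 2.67 in vehicle replicate 2 and 9.39 in replicate 3. Receptor tyrosine kinases had 2 of 28 (Pdgfra and Ret) and limbic transcription factors 2 of 27 (Meis1 and Tshz1), against 5 and 4 for estradiol-only regions. No vehicle-only region was assigned to the 18 melanocortin and feeding genes, 18 immediate early genes, 30 neuropeptides and their receptors, 16 cohesin and meiosis genes, 21 glial and vascular markers, 8 glutamatergic markers or 20 ribosomal protein genes. Estradiol-only regions were assigned to 4, 3, 2, 1, 1, 0 and 1 genes of those lists, in the same order. The median spans of those lists were 11.15, 4.021, 6.997, 46, 13.12, 29.72 and 3.51 kb, in the same order, against 17.17 kb over all genes. Most of them thus hold short genes. Vehicle-only regions reached 4.32% of all protein-coding genes, so few would be reached in lists of this size, and these absences were not tested.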

How the data were processed

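ERα CUT&RUN peak lists from 6 libraries (3 estradiol benzoate, 3 vehicle) were used as deposited, in mm10 coordinates. MACS2, deepTools, SAMtools, Picard, Bowtie2 and cutadapt are listed, with neither version nor role, per the submitters' processing notes; the use of a control library in peak calling was not given in the sources used here. Peaks were called per library, per the names in the deposited files, which carry a q-value threshold of 0.01. The deposited lists give the authors' score (10 times −log10 q, rounded down), a fold enrichment ratio, −log10 p-value, −log10 q-value and summit per peak.

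Regions were merged, classed and placed against RefSeq GRCm38.p6 tables in Python 3.11.15 with pandas 2.3.3, numpy 2.4.6 and scipy 1.17.1. Summit fragments were estimated from the fold (pseudocount of 1) and a Poisson tail, matching the deposited −log10 p within 0.0002 for at least 99.99% of peaks in each library; sequencing depth is otherwise unknown. The merging and the estimate were tested on simulated data. Intervals are exact (Clopper-Pearson) at 95% and cover counting error only. Position shares were compared by two-sided Fisher's exact tests with Benjamini-Hochberg adjustment over 3 positions.

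The members, lists and rules were chosen with earlier results of these data known. Named genes were the 6 tallest regions of each position, the 8 tallest in 3 of 3 vehicle lists, list genes with a region and genes with at least 4 regions; the ones added after values were seen are marked, and a few items are not reported here. The alternatives covered overlap, peak height, list length and libraries left out. The planned motif test needed a genome sequence and was not run; promoter windows were searched instead. All 394 list genes matched the table, which holds no strand or exons; strand came from the promoter table.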

Additional observations from a re-analysis of the deposited data

How the results depend on the processing

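The number of vehicle-only regions (1024) was within 1.5 times of that value in 8 of 17 alternatives. It was 382 with lists of equal length, 44 with a peak in 3 of 3 lists, 196 with replicates 1 and 2 only, and 80, 10 and 0 with a −log10 q of at least 5, 7 and 10 in 2 lists (added after the data were examined); leaving out one library at a time gave 90 to 1791. The 57 named regions became 17 with equal lists, 9 with 3 of 3, 12 with replicates 1 and 2, and 11 to 57 with a library left out.

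The near-end share (22.5% of vehicle-only against 14.5% of estradiol-only regions) kept its direction and its call in 11 of 17 alternatives. It missed the threshold when peaks had to cover 50% of the region (27.3% against 24.8%, Fisher's exact p = 0.161) and with equal lists (41.4% against 35.4%, Fisher's exact p = 0.0684), and when vehicle replicate 2 was dropped (a share of 24.1% against 18.7%, Fisher's exact p = 0.121). It turned with replicates 1 and 2 only (25.0% against 31.0%, Fisher's exact p = 0.106), and ranged over 18.9% to 27.7% with a library left out, turning at 18.9% against 26.9% without vehicle replicate 3. The cause was not tested.

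The inside share (35.1%) no longer passed with 50% cover (34.4%), a −log10 q of at least 3 (33.5%), 3 of 3 lists (29.6%), replicates 1 and 2 only (34.2%) or a −log10 q of at least 7 (40.0%), nor without estradiol replicate 2 (Fisher's exact p = 0.114) or vehicle replicate 2 (Fisher's exact p = 0.151), and ranged over 31.9% to 38.9% with a library left out, turning at 38.9% against 35.4% without vehicle replicate 3. The outside share (42.5%) passed with a −log10 q of at least 3 (39.6%) and without estradiol replicate 2 (38.7% against 47.0%, Fisher's exact p = 0.000907), turned with equal lists (32.7% against 31.6%) and with replicates 1 and 2 only (40.8% against 34.3%), and ranged over 38.7% to 44.0% with a library left out, turning at 44.0% against 43.2% without vehicle replicate 2 and 42.2% against 37.7% without vehicle replicate 3.

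The groups share replicate numbers, and the labels do not say that a number marks a shared animal or day. Same-numbered lists shared on average a Jaccard index of 0.320, against 0.288 for other pairs across groups. With a replicate block, counting a region by number, 1203 regions were vehicle-only and 1943 estradiol-only. Shares of vehicle-only against estradiol-only regions were then 24.0% against 22.2% near gene ends (Fisher's exact p = 0.257), 34.4% against 37.2% inside (p = 0.127) and 41.6% against 40.6% outside (p = 0.602).

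Since called summits started at 4 fragments, a missing peak does not show missing binding; the part of depth was not tested.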
